A study of Mus musculus with 12 samples.

Results

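Adenylyl cyclases and the CREB arm of cAMP signaling were examined as 10 genes, namely the cyclases *Adcy1*, *Adcy2*, *Adcy3*, *Adcy5*, *Adcy6*, *Adcy8* and *Adcy9*, the transcription factor gene *Creb1*, and the coactivator genes *Crebbp* and *Crtc1*. They were found by symbol and Ensembl gene ID among 37991 genes, and all 10 were among the 16399 genes tested after a filter on low counts. Poly(A) RNA was sequenced from the hippocampi of 12 C57BL/6N mice, 6 labelled Wildtype and 6 labelled Gadd45a-KO, which were siblings from crosses of heterozygous parents and were 6 to 7 months old per the labels. Each mouse was sampled 1 h after passive avoidance (PA) training, a foot-shock task that tests hippocampus-dependent aversive memory, and no untrained group was included, so the values describe trained mice of both labels. The Gadd45a-KO mice were germline mutants whose first *Gadd45a* exons were replaced by a selection cassette in every cell, so a difference between the labels cannot be assigned to neurons or to the hour after training. The comparison asks whether the mRNAs of this cascade differed between the labels. Because the tissue was bulk hippocampus, fewer cells of a type and less RNA per cell cannot be told apart in any value below.

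Adenylyl cyclases turn ATP into cAMP, which releases the catalytic subunits of protein kinase A (PKA), and PKA and several Ca2+-dependent kinases phosphorylate CREB, the protein encoded by *Creb1*. Phosphorylated CREB recruits CREB-binding protein (CBP, encoded by *Crebbp*), a histone acetyltransferase, whereas CRTC1 moves from the cytoplasm to the nucleus and binds CREB on DNA. In the hippocampus this route links NMDA receptor activity to the transcription required for long-term memory. The membrane-bound cyclases differ in what drives them: the products of *Adcy1*, *Adcy3* and *Adcy8* are stimulated by Ca2+ and calmodulin, that of *Adcy2* by G protein βγ subunits, those of *Adcy5* and *Adcy6* are inhibited by Ca2+, and that of *Adcy9* responds little to forskolin.

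CREB binds the cAMP response element (CRE), the palindrome TGACGTCA, or its half-site TGACG. Sequences of 250 bases before to 50 after the gene start (RefSeq promoters, GRCm38.p6) were found for 8 of the 10 genes, *Adcy6* and *Adcy8* having no entry, and for 13 of 15 CREB target genes listed as a reference. The palindrome occurred in 549 of 27025 promoters (2.03%), in none of the 8 and in 3 of the 13 targets, *Dusp1*, *Pcsk1* and *Sst*. The half-site, searched on both strands and also counted inside the palindrome, occurred in 23.0% of all promoters, in 1 of the 8, *Adcy9*, and in 12 of the 13 targets. The 4 sequences below are shown because they are the matches in these 2 groups of genes, for the targets only those with the full palindrome. Each runs 5′ to 3′ along the gene's strand, with the motif in capitals, and was placed by an exact match to NCBIM37, the build of the deposited counts.
Adcy9 (chr16:4420508-4420532, minus strand, half-site beginning 24 bases before the start): gacccggcggTGACGtgcgcgggcc
Dusp1 (chr17:26645543-26645570, minus strand, 143 bases before the start): gtagggcgggTGACGTCAccgcccggtc
Pcsk1 (chr13:75227217-75227244, plus strand, 78 bases before the start): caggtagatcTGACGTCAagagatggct
Sst (chr16:23890961-23890988, minus strand, 48 bases before the start): cctccttggcTGACGTCAgagagagagt
A match is a run of letters and not a measured binding site, and its absence says only that these letters were not in the window.

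The libraries held 44594261 to 55540601 reads assigned to genes. Reads on *Gadd45a* went against the labels: its level was 2.19 to 3.43 CPM (reads of the gene scaled to the TMM-adjusted total of reads on genes), median 2.40, in libraries labelled Wildtype and 20.5 to 23.1 CPM, median 21.1, in libraries labelled Gadd45a-KO (log2 fold change 3.06 ± 0.09 (SE), adjusted p = 1.33e-10 by edgeR's quasi-likelihood test). The cassette left the last exon in place and the counts do not separate exons, so these reads do not check the labels, and every direction below is that between libraries as labelled. Dentate granule and pyramidal cell markers such as *Prox1* and *Wfs1* were present in every library. The summed CPM of 9 thalamic markers was 88.9 to 137 in 10 libraries but 334 and 484 in Gadd45a-KO replicates 2 and 3, and that of 5 oligodendrocyte markers was 6898 in Gadd45a-KO replicate 3 against 2180 to 3539 in the others. Over all 12 libraries, each of these 5 oligodendrocyte markers had a log2 fold change above 0 (0.39 to 0.49, median 0.45). All 5 had an unadjusted p below 0.05 in edgeR, beside 13.7% of all tested genes, and none passed 1% FDR. Their median sum was 2838 CPM under the Wildtype and 3396 CPM under the Gadd45a-KO label. Values without Gadd45a-KO replicates 2 and 3 are given for each of the 10 genes in the text or in the plot of log2 fold changes.

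Per length of annotated exon, *Adcy1* was the most abundant of the 10 mRNAs, at 158 ± 24.1 CPM per kb (SD, n = 12 libraries of both labels), with no overlap with the next. *Adcy2* followed at 42.9 ± 3.34 CPM per kb, above every value of *Crtc1* (30.4 ± 2.23). *Adcy9*, at 23.7 ± 2.02 CPM per kb, overlapped the range of *Crtc1*. Below it came *Adcy5* at 16.5 ± 1.14 CPM per kb, which overlapped neither neighbor. *Adcy6* (10.4 ± 0.527) and *Adcy3* (9.56 ± 0.810 CPM per kb) overlapped each other, as did *Crebbp* (7.89 ± 0.722) and *Creb1* (6.98 ± 0.567 CPM per kb). *Adcy8* was the lowest of the 10 on this scale, at 3.83 ± 0.410 CPM per kb. The annotation used gives no 3′UTR for *Crebbp* and at most 91 nt for *Adcy8*. The paper reports hippocampal 3′UTRs that run past annotated ends, so the order between genes holds only for annotated exons. The remaining cyclases, which were not among the 10, lay lower still: *Adcy4* was at 1.12, *Adcy7* at 0.631 and *Adcy10*, the soluble cyclase, at 0.0186 CPM per kb, the last from 1 to 9 reads per library and too few to be tested.

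**Figure D1:**
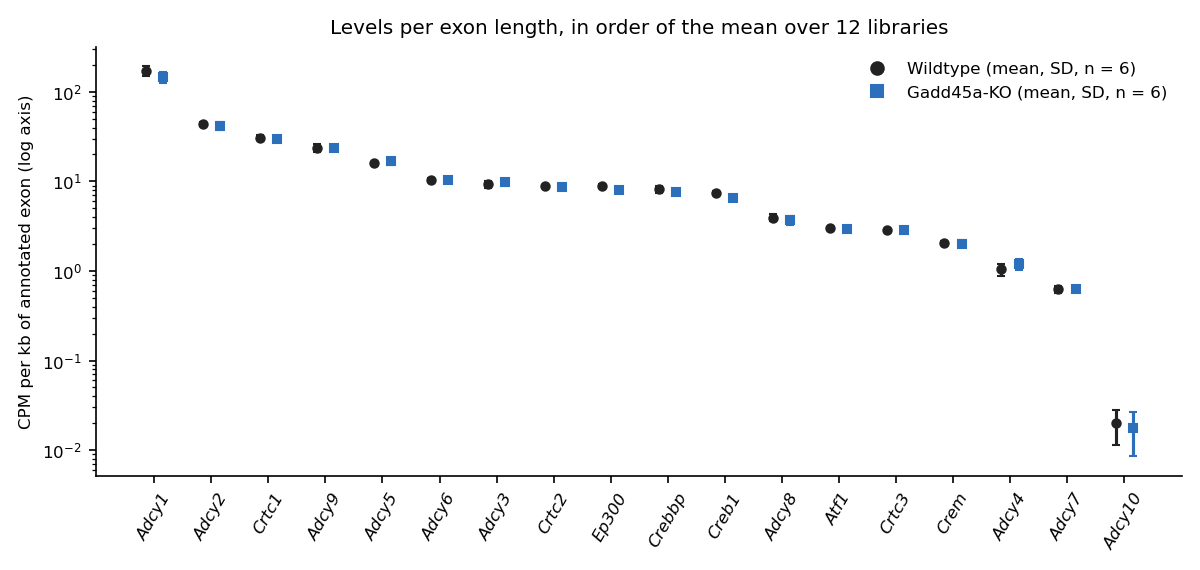
Level per kb of annotated exon (CPM per kb, log axis) for adenylyl cyclases, Creb1, Crebbp, Crtc1 and their closest relatives, in order of the mean over 12 libraries. Points are means and bars SD of 6 libraries per label; Adcy1 stands above all others in both labels and Adcy10 is the lowest.

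*Adcy1* alone made up 60.7 ± 3.02% of the summed level per kb of all 10 cyclase mRNAs in libraries labelled Wildtype and 57.2 ± 3.14% in those labelled Gadd45a-KO (SD, n = 6 each), with ranges of 57.8 to 64.4% and 53.6 to 61.4% that overlapped. The Ca2+-stimulated cyclases together made up 65.5 ± 2.48% and 62.6 ± 2.49%. *Adcy2* contributed 15.8% and 16.5%. Within the coactivators, *Crtc1* held 72.4% and 72.3% of the level per kb of *Crtc1*, *Crtc2* and *Crtc3*, and *Crebbp* held 47.9% and 48.9% of *Crebbp* plus its paralog *Ep300*. *Creb1* held 59.4 ± 1.34% of the level per kb of *Creb1*, *Atf1* and *Crem* in libraries labelled Wildtype and 56.8 ± 1.67% in those labelled Gadd45a-KO. The shares were not tested, since they are built from the same counts as the fold changes given next. They also depend on the annotated exon lengths, with no 3′UTR annotated for *Crebbp*.

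None of the 10 genes passed 1% FDR in either direction with edgeR or with DESeq2, beside 2.65% of all tested genes, 2.62% with lower and 0.0244% with higher levels under the Gadd45a-KO label. At an unadjusted p below 0.05, 2 of the 10 were counted, *Adcy1* and *Creb1*, against 13.7% of all tested genes. At 5% FDR 1 was lower, *Creb1*, beside 4.43% of all tested genes, and beside 8.89% of the 6368 tested genes whose exons are at least as long as those of *Adcy2*, the shortest of the 10 (5.18% at 1% FDR). The median log2 fold change of the 10 was -0.06, with 7 below 0, whereas that of all tested genes was 0.00, with 48.2% below 0, and that of the long genes -0.02, with 58.1% below 0.

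**Figure D2:**
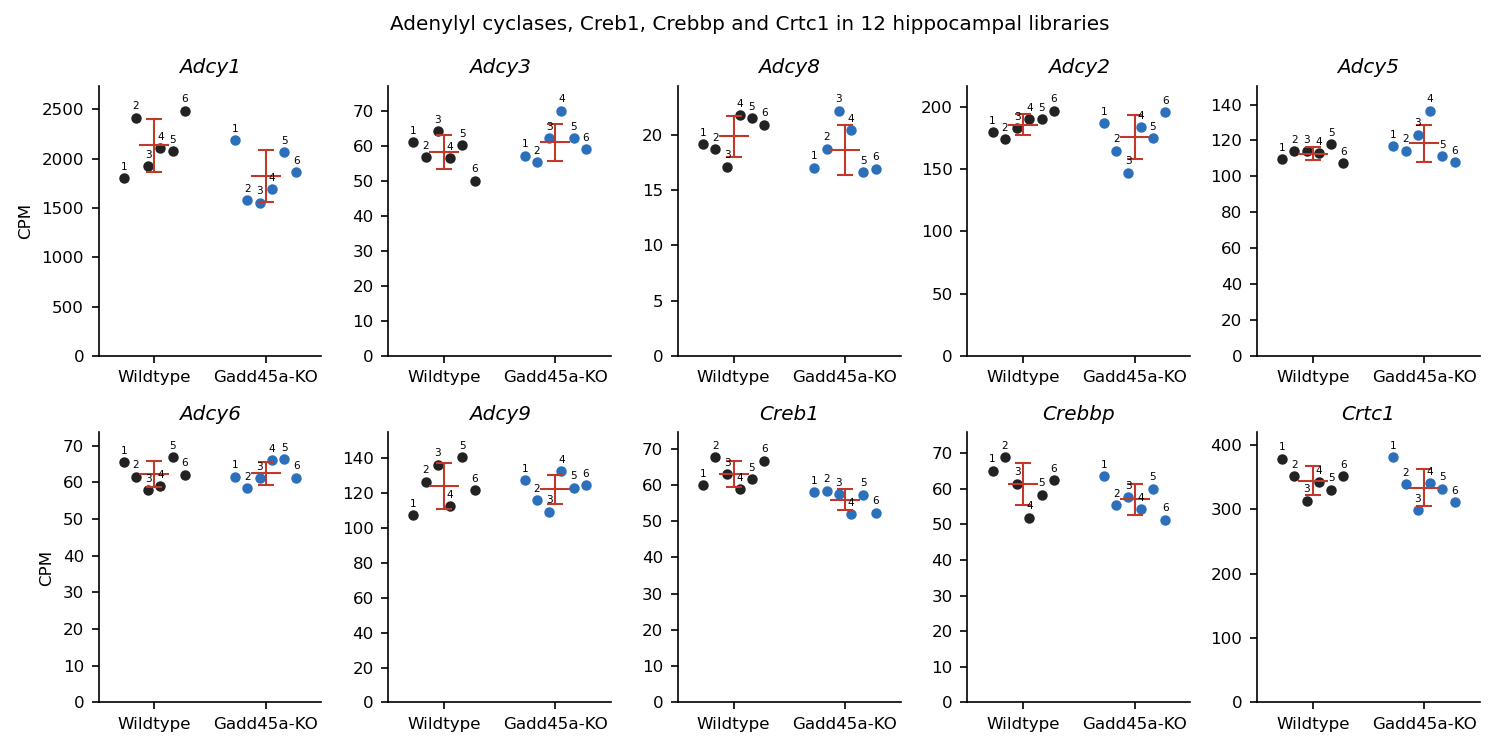
CPM of each of the 10 genes in every library, numbered by replicate, with mean and SD of 6 libraries per label in red; each axis starts at 0. The labels overlap for every gene except Creb1, whose highest Gadd45a-KO library (58.4 CPM) lies just below its lowest Wildtype library (58.8 CPM).

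Of the Ca2+-stimulated cyclases, *Adcy1* (ENSMUSG00000020431, chr11:6963492-7078509, plus strand, NCBIM37) couples Ca2+ entry to cAMP and is known for its part in hippocampal plasticity. Its level ran from 1798 to 2487 CPM (median 2092) in libraries labelled Wildtype and from 1554 to 2188 CPM (median 1775) in those labelled Gadd45a-KO. Gadd45a-KO replicates 2, 3 and 4, at 1575, 1554 and 1688 CPM, were below every Wildtype library, while replicate 1, at 2188 CPM, was above the Wildtype mean. The log2 fold change was -0.23 ± 0.10 (SE, 95% interval -0.44 to -0.02) from 71686 to 124453 reads per library, and the adjusted p of edgeR's quasi-likelihood test was 0.310. Without Gadd45a-KO replicates 2 and 3 the log2 fold change was -0.13 (adjusted p = 0.926), and with an offset for exon length it was -0.12 (adjusted p = 0.681).

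The 3 libraries with the lowest *Adcy1*, Gadd45a-KO replicates 2, 3 and 4, shared some regional marker differences in pairs. Replicates 2 and 3 had the highest thalamic sums (334 and 484 CPM), and replicates 3 and 4 had dentate sums below the Wildtype range. The summed CPM of 5 dentate granule cell markers was 398 to 574 in libraries labelled Wildtype, and in Gadd45a-KO replicates 1 to 6 it was 558, 473, 364, 263, 482 and 450. All 5 of these markers had a log2 fold change below 0 and none passed 1% FDR. All 9 thalamic markers had one above 0 (median 1.22) and none passed. In edgeR 8 of the 9 thalamic and 0 of the 5 dentate markers had an unadjusted p below 0.05. The share was 13.7% of all tested genes. The dentate sum of Gadd45a-KO replicate 2 lay within the Wildtype range, and the thalamic sum of replicate 4 was 94.9. Wildtype replicates 6 and 2, the highest of their label in *Adcy1* (2487 and 2415 CPM), also had its highest dentate sums, 574 and 569. Gadd45a-KO replicate 1, the highest of its label in *Adcy1* (2188 CPM), had the highest dentate sum of that label, 558. Wildtype replicate 1, the lowest of its label in *Adcy1* (1798 CPM), had a dentate sum of 539. Wildtype replicate 5, at 2077 CPM of *Adcy1*, had the lowest dentate sum of that label, 398. The part of these marker differences in the level of *Adcy1* was not tested.

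**Figure D3:**
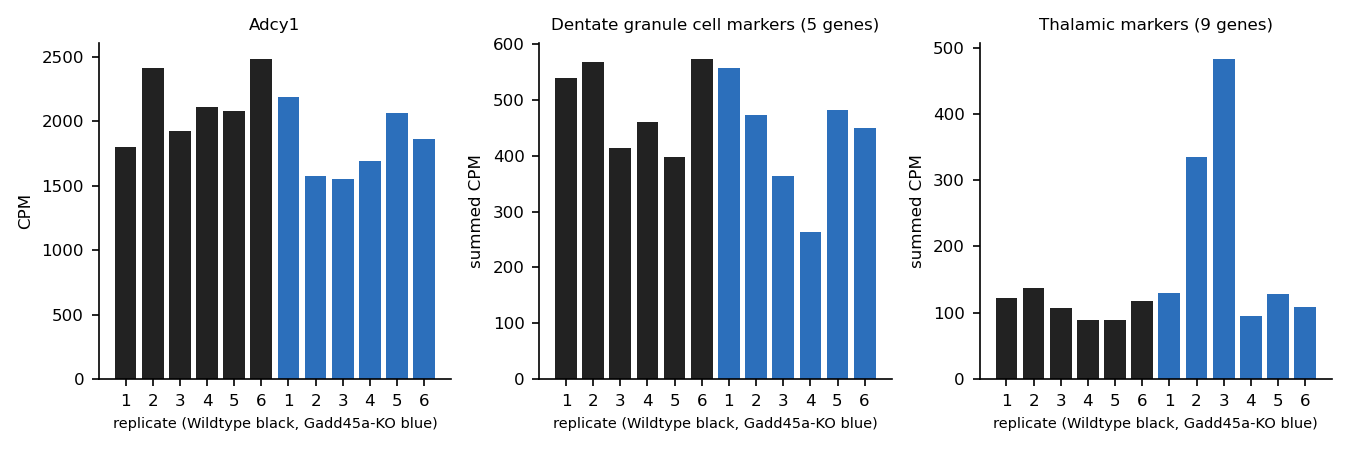
Adcy1 (CPM) beside the summed CPM of 5 dentate granule cell markers and 9 thalamic markers, 1 bar per library, Wildtype in black and Gadd45a-KO in blue. Gadd45a-KO replicates 2 and 3 have the lowest Adcy1 and the most thalamic marker reads (334 and 484 CPM), and replicate 4, also low in Adcy1, has the fewest dentate marker reads (263 CPM).

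*Adcy3* (ENSMUSG00000020654, chr12:4133103-4213525, plus strand), whose product resides in neuronal primary cilia, ran from 50.2 to 64.4 CPM (median 58.6) in libraries labelled Wildtype and from 55.4 to 70.2 CPM (median 60.7) in those labelled Gadd45a-KO. Gadd45a-KO replicate 4 was the only library above the Wildtype range, and 1 Wildtype library was the lowest of all. This gave a log2 fold change of 0.07 ± 0.06 (95% interval -0.07 to 0.20, adjusted p = 0.737 by edgeR). *Cenpo* overlaps the gene on the other strand, and the authors' counting used strand.

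*Adcy8* (ENSMUSG00000022376, chr15:64530604-64753858, minus strand) encodes another cyclase stimulated by Ca2+ and calmodulin. It ran from 17.1 to 21.8 CPM (median 20.04) in libraries labelled Wildtype and from 16.6 to 22.2 CPM (median 17.9) in those labelled Gadd45a-KO, from 768 to 1209 reads per library. Replicates 1, 5 and 6 of Gadd45a-KO were below every Wildtype library and replicate 3 above all of them. Those 3 low libraries were not the ones low in *Adcy1*. The log2 fold change was -0.09 ± 0.08 (95% interval -0.26 to 0.08, adjusted p = 0.721 by edgeR) and was -0.16 (adjusted p = 0.588) without Gadd45a-KO replicates 2 and 3.

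*Adcy2* (ENSMUSG00000021536, chr13:68758920-69138419, minus strand) encodes the cyclase that G protein βγ subunits stimulate together with Gs. Its level was 174 to 197 CPM (median 186) in libraries labelled Wildtype and 147 to 196 CPM (median 179) in those labelled Gadd45a-KO. Only Gadd45a-KO replicates 2 and 3, at 165 and 147 CPM, were below the Wildtype range. Between the labels the log2 fold change was -0.08 ± 0.06 (95% interval -0.21 to 0.05, adjusted p = 0.641 by edgeR), and without these 2 libraries it was -0.0017.

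Of the Ca2+-inhibited cyclases, *Adcy5* (ENSMUSG00000022840, chr16:35154963-35305823, plus strand) is best known as the main striatal form. It ran from 107 to 118 CPM (median 113) in libraries labelled Wildtype and from 108 to 137 CPM (median 116) in those labelled Gadd45a-KO, with Gadd45a-KO replicates 3 and 4 above every Wildtype library. Their means differed by a log2 fold change of 0.07 ± 0.05 (95% interval -0.04 to 0.18, adjusted p = 0.626 by edgeR). The summed CPM of 10 striatal markers was 50.2 to 72.5 over the 12 libraries. In Gadd45a-KO replicate 3 it was the lowest of all, and in replicate 4, at 70.8, it was the highest of that label. The part of these markers in the level of *Adcy5* was not tested. Of these markers, 2 stayed under 1 CPM in every library and the other 8 did not. A small RNA gene, *U4*, lies on the other strand of *Adcy5*.

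*Adcy6* (ENSMUSG00000022994, chr15:98420425-98438064, minus strand), its widely expressed relative, was the most even of the 10. It ran from 57.9 to 66.9 CPM (median 61.8) in libraries labelled Wildtype and from 58.5 to 66.3 CPM (median 61.4) in those labelled Gadd45a-KO. The Gadd45a-KO range thus lay within the Wildtype range. The log2 fold change was 0.01 ± 0.04 (95% interval -0.09 to 0.10, adjusted p = 0.970 by edgeR), and 0.04 without Gadd45a-KO replicates 2 and 3.

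*Adcy9* (ENSMUSG00000005580, chr16:4287529-4420498, minus strand) ran from 107 to 141 CPM (median 124) in libraries labelled Wildtype and from 109 to 133 CPM (median 124) in those labelled Gadd45a-KO, again within the Wildtype range. Its log2 fold change was -0.02 ± 0.07 (95% interval -0.16 to 0.12, adjusted p = 0.936 by edgeR), turning to 0.03 without Gadd45a-KO replicates 2 and 3. The span of *Gm6142* overlaps that of *Adcy9* on the same strand. Reads could not be assigned where exons of both overlap, and whether any do was not examined. *Adcy9* and *Crebbp* are neighbors on chromosome 16, 74.1 kb apart and on the same strand.

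*Creb1* (ENSMUSG00000025958, chr1:64579378-64651121, plus strand) had the smallest p of the 10. Its level was 58.8 to 67.7 CPM (median 62.3) in libraries labelled Wildtype and 52.0 to 58.4 CPM (median 57.4) in those labelled Gadd45a-KO, from 2529 to 3431 reads per library. All 6 Gadd45a-KO libraries were below all 6 Wildtype libraries, though by only the step from 58.4 to 58.8 CPM, an arrangement found in 3.12% of all tested genes. This amounted to a log2 fold change of -0.17 ± 0.04 (95% interval -0.27 to -0.08), a ratio of 0.888. The adjusted p of edgeR's quasi-likelihood test was 0.0412, which is past 5% FDR and not past 1%.

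The call for *Creb1* at 5% FDR depended on the setting. DESeq2 gave an adjusted p of 0.0115, and an offset for exon length gave a log2 fold change of -0.11 with an adjusted p of 0.152 in edgeR. That offset also takes up any difference between the labels that follows exon length. Without Gadd45a-KO replicates 2 and 3 the log2 fold change was -0.20 and the edgeR adjusted p 0.0605. Leaving out 1 library at a time kept the log2 fold change between -0.18 and -0.14, with an edgeR adjusted p from 0.0399 to 0.138. The adjusted p was below 5% in 6 of 20 alternatives.

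**Figure D4:**
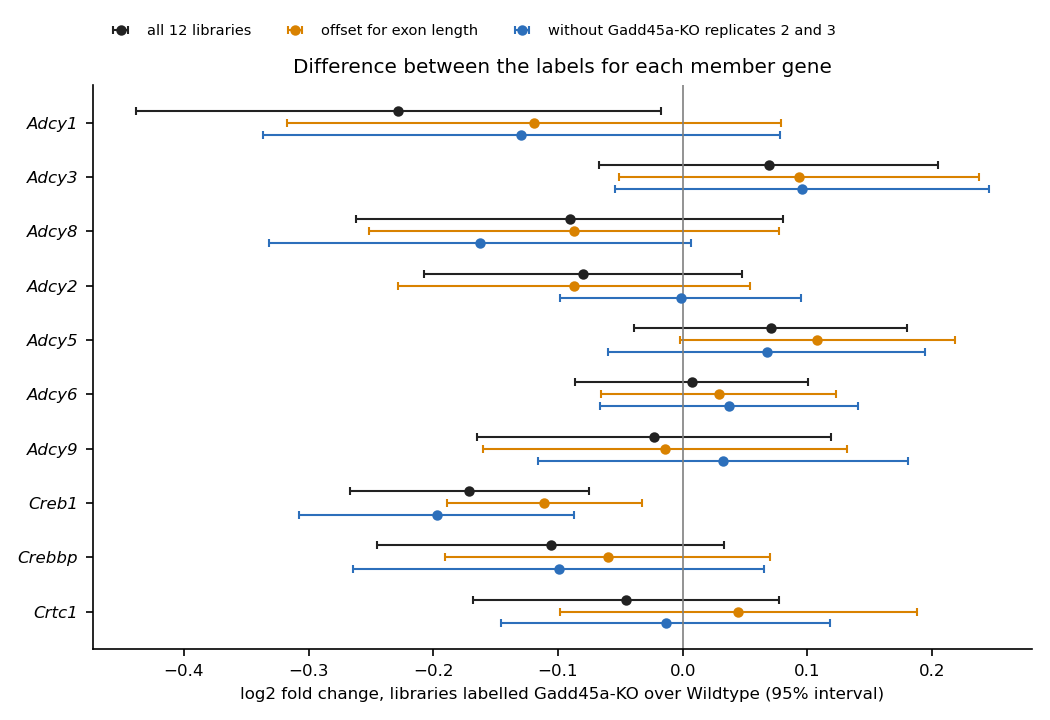
Log2 fold change of the libraries labelled Gadd45a-KO over Wildtype with 95% interval for each of the 10 genes, for all 12 libraries, with an offset for exon length, and without Gadd45a-KO replicates 2 and 3. Creb1 keeps its interval below 0 in all 3 settings, while that of Adcy1 does so only with all 12 libraries.

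*Crebbp* (ENSMUSG00000022521, chr16:4084048-4213404, minus strand), which encodes the acetyltransferase CBP, ran from 51.9 to 69.0 CPM (median 62.0) in libraries labelled Wildtype and from 51.3 to 63.5 CPM (median 56.5) in those labelled Gadd45a-KO. Of the Gadd45a-KO libraries, 5 were below the Wildtype mean, but only 1 was below the Wildtype range. This gave a log2 fold change of -0.11 ± 0.06 (95% interval -0.24 to 0.03, adjusted p = 0.538 by edgeR). *Ep300*, the paralog encoding p300, had 99.7 ± 4.97 CPM in libraries labelled Wildtype and 89.0 ± 4.29 CPM in those labelled Gadd45a-KO (SD, n = 6; log2 fold change -0.16 ± 0.04, adjusted p = 0.0327 by edgeR), past 5% FDR only. With an offset for exon length *Ep300* was at -0.07 (edgeR adjusted p = 0.365), without Gadd45a-KO replicates 2 and 3 at -0.13 (0.212), and with 1 library left out the edgeR adjusted p ranged from 0.0179 to 0.126.

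*Crtc1* (ENSMUSG00000003575, chr8:72906254-72963478, minus strand), which encodes a CREB coactivator regulated by Ca2+ and cAMP through salt-inducible kinases, ran from 314 to 379 CPM (median 347) in libraries labelled Wildtype and from 299 to 382 CPM (median 336) in those labelled Gadd45a-KO. The lowest and the highest library both carried the Gadd45a-KO label, replicates 3 and 1. The log2 fold change was -0.05 ± 0.06 (95% interval -0.17 to 0.08, adjusted p = 0.831 by edgeR), and it was -0.01 without Gadd45a-KO replicates 2 and 3 and turned to 0.04 with an offset for exon length.

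In libraries of 1 label, the coefficient of variation of a gene lay between 3.32% (*Adcy5*, Wildtype) and 14.4% (*Adcy1*, Gadd45a-KO). Annotated 3′UTRs differed widely as well, the longest being 8791 nt for *Adcy1*, 7169 nt for *Creb1* and 3769 nt for *Crtc1*, and 91 nt for *Adcy8*. The genes with the longest 2 were thus also those with the lowest log2 fold changes, over only 10 genes and with no test. The annotation used gives no 3′UTR for *Crebbp*, which limits this comparison.

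The gene most like each of the 10 across libraries was taken as that with the smallest root mean square (RMS) difference of centered log2 CPM over 12 libraries, among 9781 genes of at least 10 CPM. For *Creb1* it was *Map3k2*, with an RMS difference of 0.0353 against 0.112 for *Creb1*'s own deviations from its mean, and *Map3k2* was at -0.20 as log2 fold change (adjusted p = 0.0122 by edgeR). For *Adcy1* it was *Mfap3*, with an RMS difference of 0.0926 against 0.212. *Adcy3* was closest to *Sema4a* (0.0338), *Adcy2* to *Ppapdc1b* (0.0422), *Crtc1* to *Rnpep* (0.0384) and *Adcy6* to *Ahsa2* (0.0409). The RMS difference was 0.0510 for *Adcy5* with *Slc1a4*, 0.0536 for *Adcy9* with *Map4k3* and 0.0586 for *Crebbp* with *Gm15800*. *Adcy8* had the least similar partner, *Rbms1*, at 0.102. Own deviations were 0.117 for *Adcy3*, 0.113 for *Adcy2*, 0.101 for *Crtc1* and 0.0700 for *Adcy6*. They were 0.0915 for *Adcy5*, 0.118 for *Adcy9*, 0.126 for *Crebbp* and 0.148 for *Adcy8*. These distances describe the 12 libraries of both labels and were not tested. The profiles include the label difference, so a similar log2 fold change of the nearest gene follows from how it was picked.

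The rest of the pathway was followed in 68 other genes listed by role, of which 67 were tested. At 1% FDR 3 had lower and none higher levels under the Gadd45a-KO label, beside the 2.62% and 0.0244% of all tested genes given above. An unadjusted p below 0.05 in edgeR was found for 17. For this count and those by role below, the share was 13.7% of all tested genes, and 1385 of the 6368 long genes. All 3 genes called at 1% FDR encode A-kinase anchoring proteins (AKAPs), the scaffolds that hold PKA at particular sites in the cell, of which 11 were listed. Their exons span 6456 (*Akap10*), 9419 (*Akap11*) and 9627 bases (*Sphkap*), and 5.18% of the long genes were lower at 1% FDR. DESeq2 called 6 lower, adding *Akap6*, *Ep300* and *Rps6ka3*, and none higher.

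**Figure D5:**
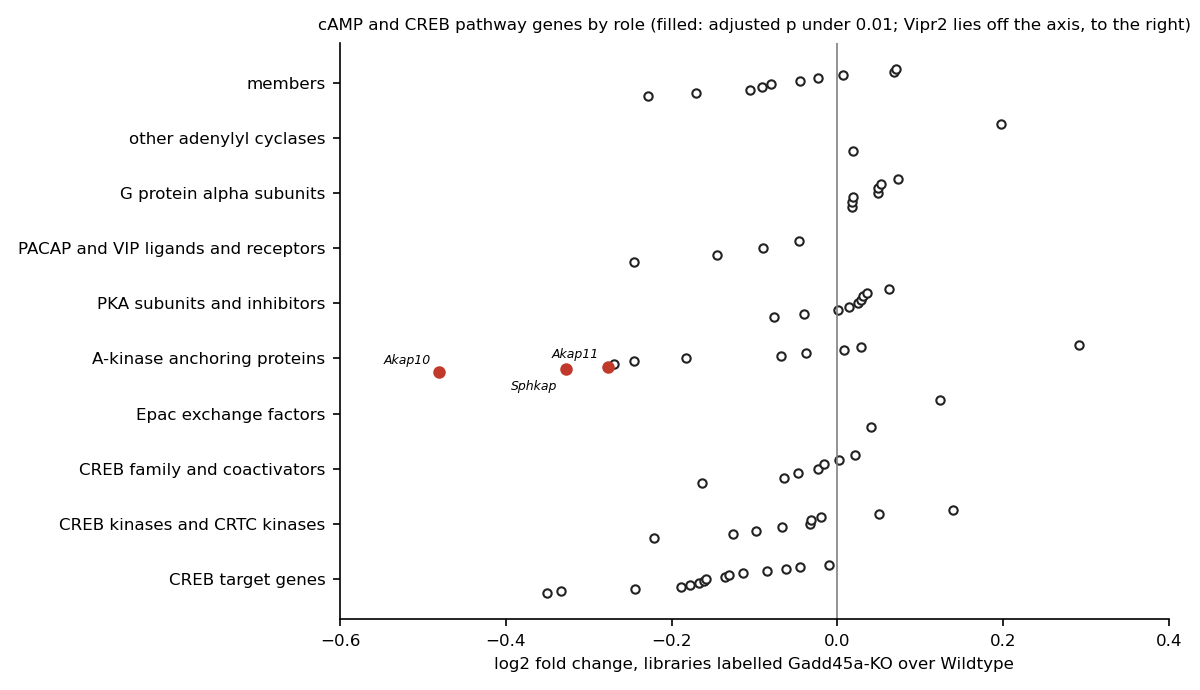
Log2 fold change of the libraries labelled Gadd45a-KO over Wildtype for each tested gene of the cAMP and CREB pathway, 1 row per role (the top row, members, holds the 10 genes above) and 1 point per gene; filled points passed 1% FDR in edgeR. The 3 filled points are Akap10, Sphkap and Akap11, and all 15 CREB target genes lie below 0 without passing; Vipr2 (2.48) is beyond the axis.

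*Akap10*, whose product anchors both types of PKA regulatory subunit, was 23.9 to 30.6 CPM (median 25.5) in libraries labelled Wildtype and 17.4 to 19.9 CPM (median 19.2) in those labelled Gadd45a-KO. It was lower, at -0.48 ± 0.06 as log2 fold change (adjusted p = 0.000418 by edgeR) with no overlap of the labels. *Akap11* was 271 to 320 CPM (median 306) and 242 to 257 CPM (median 248) in the same order, again without overlap, and its log2 fold change was -0.28 ± 0.04 (adjusted p = 0.000918 by edgeR).

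*Sphkap*, a neuronal anchor of type I PKA, was 410 to 489 CPM (median 467) in libraries labelled Wildtype and 326 to 404 CPM (median 368) in those labelled Gadd45a-KO. The difference was -0.33 ± 0.06 as log2 fold change (adjusted p = 0.00343 by edgeR) with no overlap of the labels. Its call at 1% FDR was lost with an offset for exon length (-0.25, adjusted p = 0.0261), without Gadd45a-KO replicates 2 and 3 (-0.26, adjusted p = 0.0175), and without any of Wildtype replicates 2, 3, 5 or 6, where the edgeR adjusted p was 0.0110 to 0.0134. Of the other AKAPs, *Akap6* passed 5% FDR only, at -0.27 ± 0.07 (adjusted p = 0.0281), and *Akap12* had the highest log2 fold change, 0.29 ± 0.10 (adjusted p = 0.161), both by edgeR. *Akap6* did not pass 5% FDR with the exon length offset (-0.19, edgeR adjusted p = 0.0927) or without Gadd45a-KO replicates 2 and 3 (-0.26, edgeR adjusted p = 0.0826). *Akap12* was at 24.1 and 23.9 CPM in Gadd45a-KO replicates 2 and 3 against 16.2 to 19.97 CPM in the others of that label, and its log2 fold change was 0.15 (edgeR adjusted p = 0.746) without these 2. An unadjusted p below 0.05 in edgeR was found for 7 of the 11 AKAP genes. The share was 13.7% of all tested genes, and 1385 of the 6368 long genes. The median log2 fold change of the 11 AKAP genes was -0.18, with 8 below 0. Among all tested genes 48.2% were below 0, and among the long genes 58.1%.

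Upstream of the cyclases, none of 7 G protein α subunit genes passed 1% FDR with edgeR or DESeq2 (0 at an unadjusted p below 0.05), and their log2 fold changes lay between 0.02 (*Gnaz*) and 0.07 (*Gnai2*), all above 0. Of 5 genes for the neuropeptides PACAP and VIP and their receptors none passed 1% FDR with either tool on all 12 libraries. An unadjusted p below 0.05 was found for 3, beside 13.7% of all tested genes. *Adcyap1r1*, the PACAP receptor, was lowest at -0.25 ± 0.07 (adjusted p = 0.0859 by edgeR), with 180 to 248 CPM in libraries labelled Wildtype and 175 to 207 CPM in those labelled Gadd45a-KO. Without Wildtype replicate 3, the library at 180 CPM, it passed 1% FDR at -0.30 (edgeR adjusted p = 0.00394), whereas leaving out any other single library gave an adjusted p of 0.103 to 0.207. *Vipr2*, a VIP and PACAP receptor, was highest at 2.48 ± 0.77 (adjusted p = 0.104 by edgeR), a value set by 7.60 and 16.2 CPM in Gadd45a-KO replicates 2 and 3, the libraries with the most thalamic marker reads, against 0.441 to 1.18 CPM in the other 10. Without these 2 its log2 fold change was 0.18.

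Among the effectors of cAMP none passed with either tool, and 1 had an unadjusted p below 0.05 (*Rapgef4*). The 9 genes of PKA subunits and PKA inhibitors lay between -0.08 (*Pkig*) and 0.06 (*Pkib*), 7 of them above 0, and the 2 Epac genes, cAMP-activated exchange factors for Rap, were at 0.04 (*Rapgef3*) and 0.12 (*Rapgef4*, adjusted p = 0.233 by edgeR). The tested cyclases outside the 10 were at 0.02 (*Adcy7*) and 0.20 (*Adcy4*). Of 7 relatives of *Creb1*, *Crebbp* and *Crtc1* none passed with edgeR (1 at an unadjusted p below 0.05), with *Ep300* lowest and *Creb3* highest, at 0.02. Of 9 genes for kinases of CREB or CRTC proteins and their regulators none passed 1% FDR with edgeR (1 at an unadjusted p below 0.05). *Rps6ka3*, encoding the CREB kinase RSK2, was lowest at -0.22 ± 0.05 (adjusted p = 0.0171 by edgeR, past 5% FDR, and 0.0162 to 0.0698 with 1 library left out), and *Rps6ka1* highest at 0.14 ± 0.07 (adjusted p = 0.399).

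Downstream, none of 15 CREB target genes, which include immediate early genes and neuropeptide genes, passed 1% or 5% FDR with edgeR or 1% FDR with DESeq2. An unadjusted p below 0.05 was found for 4, beside 13.7% of all tested genes. All 15 had a log2 fold change below 0, with a median of -0.16, beside 48.2% below 0 among all tested genes. The 5 dentate granule cell markers, all below 0, had the same median of -0.16, and the 5 oligodendrocyte markers were all above 0, and the part of these markers in the values of the target genes was not tested. Over the alternatives 13 to 15 of the 15 were below 0, the count being 13 without Gadd45a-KO replicates 2 and 3 and also without Gadd45a-KO replicate 1 alone. The lowest was *Fos*, at 3.92 to 7.73 CPM (median 4.92) in libraries labelled Wildtype and 3.76 to 4.66 CPM (median 4.12) in those labelled Gadd45a-KO (log2 fold change -0.35 ± 0.15, adjusted p = 0.307 by edgeR), and without Wildtype replicate 6 its log2 fold change was -0.21. The highest was *Fosb*, at -0.01 ± 0.12, which turned to 0.06 without Wildtype replicate 6 and to 0.12 without Gadd45a-KO replicates 2 and 3. Immediate early gene RNAs are short-lived. The spread of *Fos* among Wildtype libraries (CV 27.6%) exceeded that of each of the 10 genes above. Among Gadd45a-KO libraries its CV was 10.2%, below those of *Adcy1* (14.4%) and *Adcy8* (12.1%) in that label.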

How the data were processed

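Reads were made from 12 hippocampal poly(A) libraries (stranded TruSeq, single reads) and aligned by the authors with TopHat 1.4.1 to NCBIM37. The deposited values are raw counts per Ensembl gene from htseq-count (HTSeq 0.5.4p3), strand-specific, with no normalization or pooling. Rows of reads not assigned to a single gene were left out of library sizes. These had no gene, an ambiguous gene or no unique alignment, and made up 24.1 to 26.3% of counted entries per library. Gene positions and exon lengths came from an annotation of the same build one Ensembl release earlier, which matched 37205 of 37991 IDs.

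Genes were filtered (filterByExpr), normalized by TMM and tested with edgeR 4.0.16 (R 4.3.3, quasi-likelihood, no covariates, Benjamini-Hochberg over all tested genes, 1% FDR as in the study's methods). SE was derived as log2 fold change divided by the root of F. CPM uses TMM library sizes and no prior count. The alternatives were DESeq2 1.42.0, RLE factors, no filter, at least 10 reads per library, 5% FDR, a replicate block, an exon length offset (spline, 5 degrees of freedom) with and without the block, and leaving out each library. The offset was fitted to each library with its label not set aside, so it also takes up differences between the labels that follow exon length. The omission of Gadd45a-KO replicates 2 and 3 was added after the data were seen.

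Samples were grouped by the labels; each library is a separate mouse, and pairs of 1 label differed beyond counting error (chi-square per degree of freedom 9.12 to 40.6, 30 pairs). Named are all 10 genes, pathway genes at 1% FDR, the lowest and highest of each role, and each gene's nearest profile. Members and lists were chosen with earlier results of these data known; *Akap6* and the target genes shown for their promoters were named after their values were seen. In a simulation of 16304 genes of this comparison, 200 were altered by a log2 fold change of 1. Of these 175 were called, with 0 others. The largest difference among the 10 genes was -0.23 (*Adcy1*), so the simulation gives no rate for changes of their size. The 2 markers with 2 IDs each were left out. Figures were drawn with matplotlib 3.10.9 (Python 3.11.15).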

Additional observations from a re-analysis of the deposited data

Results flagged for a closer look

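In groups of 6 libraries of 1 label, 78 sets of values were screened for a library that stands far from the others, and 6 were found where chance gives about 1 in 20, or 3.90. None concerned the 10 genes of the adenylyl cyclase and CREB list. *Adcyap1r1*, the PACAP receptor gene, was 180 CPM (179.9) in Wildtype replicate 3 against 236 to 248 CPM in the other Wildtype libraries. *Fosb* was 7.45 CPM in Wildtype replicate 6 against 5.73 to 6.16 CPM in the others of that label. *Rapgef3* was 33.9 CPM in Gadd45a-KO replicate 6 against 36.5 to 37.1 CPM, and *Rps6ka1* was 16.4 CPM in Gadd45a-KO replicate 3 against 12.7 to 13.7 CPM. The summed CPM of 5 oligodendrocyte markers was 6898 in Gadd45a-KO replicate 3 against 2817 to 3539, and that of 5 microglial markers was 268 (268.5) in Gadd45a-KO replicate 6 against 234 to 247.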

How the results depend on the processing

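None of the 10 genes passed 1% FDR under any alternative tried; at 5% FDR 1 was lower. *Creb1*, *Adcy1*, *Adcy2*, *Adcy8* and *Crebbp* were below 0, and *Adcy3* and *Adcy5* above 0, in all 20 alternatives. The log2 fold change of *Crtc1* turned to 0.0447 with the length offset and 0.0440 with that and the replicate block, and that of *Adcy9* to 0.0324 without Gadd45a-KO replicates 2 and 3. With 1 library left out, *Adcy6* ranged from -0.0048 to 0.0378 and *Adcy9* from -0.0514 to 0.0243. None of the other 8 changed sign, with ranges of -0.28 to -0.17 (*Adcy1*), 0.03 to 0.11 (*Adcy3* and *Adcy5*), -0.14 to -0.05 (*Adcy8*), -0.10 to -0.03 (*Adcy2*), -0.18 to -0.14 (*Creb1*), -0.14 to -0.06 (*Crebbp*) and -0.08 to -0.01 (*Crtc1*). Pathway genes lower numbered 3, 6 with DESeq2 and 6 at 5% FDR, 2 with the length offset, 2 without Gadd45a-KO replicates 2 and 3, and 2 to 3 with 1 library left out. *Akap10* and *Akap11* were called each time at 1% FDR; without Wildtype replicate 3 the third gene was *Adcyap1r1* and not *Sphkap*. All tested genes lower numbered 430, and 667 with DESeq2, 275 with the length offset, 199 without Gadd45a-KO replicates 2 and 3, 726 at 5% FDR and 239 to 467 with 1 library left out. Genes higher numbered 4, and 18, 9, 10 and 20 with DESeq2, the length offset, the same with the replicate block, and 5% FDR, and 3 to 4 with 1 library left out. The cause was not tested.

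No source says that equal replicate numbers share a litter or batch. Deviations of same-numbered libraries correlated above 0.1 in 5 of 6 pairs (0.103 to 0.262) and at -0.0761 in replicate 6, and only replicate 3 correlated best with its own number, so the samples were treated as sharing only a number. With the replicate block 509 genes were lower and 5 higher, 0 of the 10 genes passed, and 4 pathway genes were lower, *Akap6* being added (adjusted p = 0.00557 by edgeR); *Adcyap1r1* had an edgeR adjusted p of 0.0126. Depth limits *Adcy10* (1 to 9 reads). With 6 mice per label, the 95% intervals of *Adcy1* and *Adcy8* reach down to -0.44 and -0.26 on the log2 scale.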

Other observations

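Of the 15 CREB target genes, the 4 with an unadjusted p below 0.05 were *Fos*, *Nr4a1*, *Per1* and *Ppargc1a*, named after their values were seen. Among all tested genes 13.7% had such a p. *Nr4a1*, an orphan nuclear receptor induced by neuronal activity, was 48.6 ± 10.8 CPM in libraries labelled Wildtype and 38.5 ± 8.39 CPM in those labelled Gadd45a-KO (SD, n = 6; adjusted p = 0.357 by edgeR's quasi-likelihood test). *Per1*, a clock gene, was 80.3 ± 8.68 and 71.9 ± 5.04 CPM (adjusted p = 0.297 by edgeR). *Ppargc1a*, a coactivator of mitochondrial genes, was 49.3 ± 2.65 and 44.2 ± 3.39 CPM, with 5 of 6 Gadd45a-KO libraries below every Wildtype library (adjusted p = 0.126 by edgeR). None passed the correction over all tested genes.

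The summed level of all 10 cyclase mRNAs was 280 ± 22.2 CPM per kb in libraries labelled Wildtype and 253 ± 24.0 CPM per kb in those labelled Gadd45a-KO, with ranges of 249 to 309 and 224 to 285. The mean level of *Adcy1* was 24.9 CPM per kb lower, beside 26.4 CPM per kb for all cyclases together, with neither difference tested on this scale.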
